A study of Mus musculus with 9 samples.

Results

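Prokr2, Adh1, Vnn1 and Rhox8 are 4 genes that were high in the control fetal testis against the control fetal ovary and changed little when Sox9 was deleted in the testis. They were picked by name on exactly those differences, out of 15300 genes in each deposited table, and all 4 were found by matching their symbols to mouse Ensembl gene IDs. The selection had no numeric threshold. Because it used the XX-WT against XY-WT and XY-KO against XY-WT contrasts, and the third contrast is the difference of these, the members' own values are a description and carry no test.

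The samples were gonads of C57BL/6 mouse fetuses at stage E13.5, counted in days after conception, dissected away from the mesonephros, the transient kidney beside the gonad. XY-WT samples were testes of XY Sox9flox/flox wildtype fetuses (n = 3), and XX-WT samples were ovaries of XX Sox9flox/flox wildtype fetuses (n = 3). XY-KO samples were testes of XY AMH-Cre; Sox9flox/flox fetuses (n = 3), in which Cre recombinase is driven by the Amh promoter, active in Sertoli cells. All 3 groups thus carry the floxed Sox9 alleles, and only XY-KO carries the Cre. Nothing in the labels tells if each sample held gonads of one fetus or of several, so the sample spread behind the errors and p-values may be technical.

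Expression was available as the authors' limma comparisons of group against group; values of single samples were not analysed here, and the depth of each sample is unknown. Levels are in log2 CPM (CPM, reads of a gene scaled to a common library total), derived for each group from the authors' mean and fold changes. In whole gonads, fewer cells of a type and less RNA per cell cannot be told apart. Standard errors (SE) come from the authors' t. A gene is called when the authors' limma adjusted p is under 0.05. The label of the knockout held: the authors' deposited table put Sox9 at -2.76 (SE 0.172) in XY-KO against XY-WT. Amh, the anti-Müllerian hormone of Sertoli cells, was at -2.06 (SE 0.202) in that table of the authors. Against XX-WT, Sox9 in XY-KO stood at 1.71 (SE 0.235), 3.28-fold higher, so its level did not fall to that of the ovary.

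In the XY gonad the transcription factor SOX9 turns supporting cell precursors into Sertoli cells, which in turn direct the other cells of the fetal testis. The 4 genes belong to unrelated families. Prokr2 encodes a G protein-coupled receptor for prokineticins, small secreted proteins, and is best known for its role in the development of the olfactory bulb and of the neurons that drive puberty. Adh1 encodes the class I alcohol dehydrogenase, which oxidises ethanol and retinol. Vnn1 encodes vanin-1, a membrane-anchored pantetheinase that releases pantothenate and cysteamine, and it has long been used as a sex-specific marker of the fetal testis. Rhox8 encodes a homeodomain transcription factor of the reproductive homeobox cluster on the X chromosome, known from Sertoli and granulosa cells.

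Sequence before the RefSeq start is shown for Prokr2 and Adh1, the only 2 members that the RefSeq promoter table (GRCm38.p6) held. The stretches end before the first start annotated in GENCODE M21 or RefSeq that falls in the window. They lie at chr2:132385503-132385697 on the minus strand for Prokr2 and at chr3:138277335-138277493 on the plus strand for Adh1. The Adh1 stretch lies before its coding transcripts but inside the gene as GENCODE gives it, since a non-coding transcript of Adh1 starts at 138260991, 16.5 kb before the longest coding one at 138277494. Capitals mark the matches to any of 3 motifs, searched on both strands: the SOX core AACAAT, the SF1 half-site AAGGTCA (SF1 is a nuclear receptor of gonadal somatic cells) and the GATA core AGATAA.
Prokr2: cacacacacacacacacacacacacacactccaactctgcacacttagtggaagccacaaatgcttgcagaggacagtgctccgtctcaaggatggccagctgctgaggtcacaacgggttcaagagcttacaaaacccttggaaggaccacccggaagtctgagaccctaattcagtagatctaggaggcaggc
Adh1: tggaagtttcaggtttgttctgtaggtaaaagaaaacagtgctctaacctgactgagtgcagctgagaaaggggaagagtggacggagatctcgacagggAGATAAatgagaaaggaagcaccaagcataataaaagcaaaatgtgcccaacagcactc
The only match was the GATA core in Adh1, 150 bases before the RefSeq start. Neither window of 300 bases held the SOX core or the SF1 half-site. Among 32851 promoter windows of that length, 10.7% held the SOX core, 4.72% the SF1 half-site and 11.2% the GATA core. The absence of a motif says only that these letters are not in these windows.

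The receptor gene Prokr2 (ENSMUSG00000050558, chromosome 2, 132337733 to 132385447, minus strand, protein-coding) had the largest sex difference of the 4. Its derived level was 6.27 ± 0.0902 log2 CPM (SE, n = 3) in XY-WT and 5.97 ± 0.0936 (SE, n = 3) in XY-KO, but -0.06 ± 0.30 (SE, n = 3) in XX-WT. On the linear scale these levels were 77.2 CPM and 62.7 CPM in the 2 testis groups and 0.958 CPM in the ovary. The authors' deposited table gave -6.33 (SE 0.313) for XX-WT against XY-WT, a level 80.6-fold lower (95% interval 50.8 to 128), the 15th largest deficit in XX-WT among the 15300 genes. At so low an XX-WT level, folds against XX-WT and this rank may depend on the offset added before the logarithm, which is not given. For XY-KO against XY-WT the authors' deposited table gave -0.30 (SE 0.130), or 1.23-fold lower (95% interval 1.02 to 1.49). That interval leaves out no change, but Prokr2 was not among the called genes once p-values were adjusted over the whole table. Against the ovary, the authors' deposited table put Prokr2 in XY-KO at 6.03 (SE 0.314), 65.4-fold higher (95% interval 41.2 to 104).

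Adh1 (ENSMUSG00000074207, chromosome 3, 138260991 to 138290698, plus strand, protein-coding) followed the same course. Its derived level was 5.17 ± 0.122 log2 CPM (SE, n = 3) in XY-WT, 4.94 ± 0.126 (SE, n = 3) in XY-KO and -0.45 ± 0.405 (SE, n = 3) in XX-WT. The 2 testis groups lay close together and the ovary far below both. The authors' deposited table gave -5.61 (SE 0.424) for XX-WT against XY-WT, 48.9-fold lower (95% interval 26.2 to 91.4). With XX-WT at 0.734 CPM, the folds of Adh1 against XX-WT may also depend on the log offset. In XY-KO against XY-WT the authors' deposited table gave -0.23 (SE 0.176), 1.17-fold lower, with a 95% interval on the log2 scale of -0.60 to 0.15. XY-KO stood 5.38 (SE 0.425) above XX-WT in the authors' deposited table, 41.8-fold higher (95% interval 22.3 to 78.1).

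Reads at Adh1 have an overlap to keep in mind. Gm16559, an antisense RNA gene on the minus strand (chromosome 3, 138281408 to 138307022), shares 136 exonic bases with Adh1, or 6.09% of the exonic bases of Adh1 and 8.70% of its own. Whether the counting used strand is not given in the sources used here, so how reads in the shared bases were assigned to the 2 genes is unknown. In addition, 134 bases (8.98%) of the longest coding Adh1 transcript matched the annotated gene Gm43158 at 90% identity or more. The longest coding transcripts of Prokr2, Vnn1 and Rhox8 had no such match of at least 100 bases in another annotated gene, and no other gene's exons lie within their spans.

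Vnn1 (ENSMUSG00000037440, chromosome 10, 23894688 to 23905343, plus strand, protein-coding) had a smaller sex difference and a higher level in the ovary than Prokr2 and Adh1. Its derived level was 3.39 ± 0.162 log2 CPM (SE, n = 3) in XY-WT, 3.66 ± 0.152 (SE, n = 3) in XY-KO and 1.46 ± 0.247 (SE, n = 3) in XX-WT. XY-KO had the highest point estimate, and the 95% interval of its difference from XY-WT includes no change. The authors' deposited table gave -1.94 (SE 0.296) for XX-WT against XY-WT, 3.82-fold lower (95% interval 2.47 to 5.91). For XY-KO against XY-WT the authors' deposited table gave 0.27 (SE 0.223), 1.21-fold higher, with a 95% interval on the log2 scale of -0.20 to 0.75. XY-KO stood 2.21 (SE 0.290) above XX-WT in the authors' deposited table, 4.62-fold higher (95% interval 3.01 to 7.09).

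Rhox8 (ENSMUSG00000064137, chromosome X, 37874778 to 37878944, minus strand, protein-coding) had nearly the same point estimate in both kinds of testis, with the widest error of the 4 in that contrast. Its derived level was 4.10 ± 0.229 log2 CPM (SE, n = 3) in XY-WT, 4.11 ± 0.229 (SE, n = 3) in XY-KO and 2.12 ± 0.332 (SE, n = 3) in XX-WT. The authors' deposited table gave -1.97 (SE 0.403) for XX-WT against XY-WT, 3.92-fold lower (95% interval 2.16 to 7.11). For XY-KO against XY-WT the authors' deposited table gave 0.01 (SE 0.324), with a 95% interval on the log2 scale of -0.68 to 0.70. A change of up to 1.60-fold down or 1.63-fold up is therefore inside the interval for Rhox8. XY-KO stood 1.98 (SE 0.403) above XX-WT in the authors' deposited table, 3.96-fold higher (95% interval 2.18 to 7.18).

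**Figure D1:**
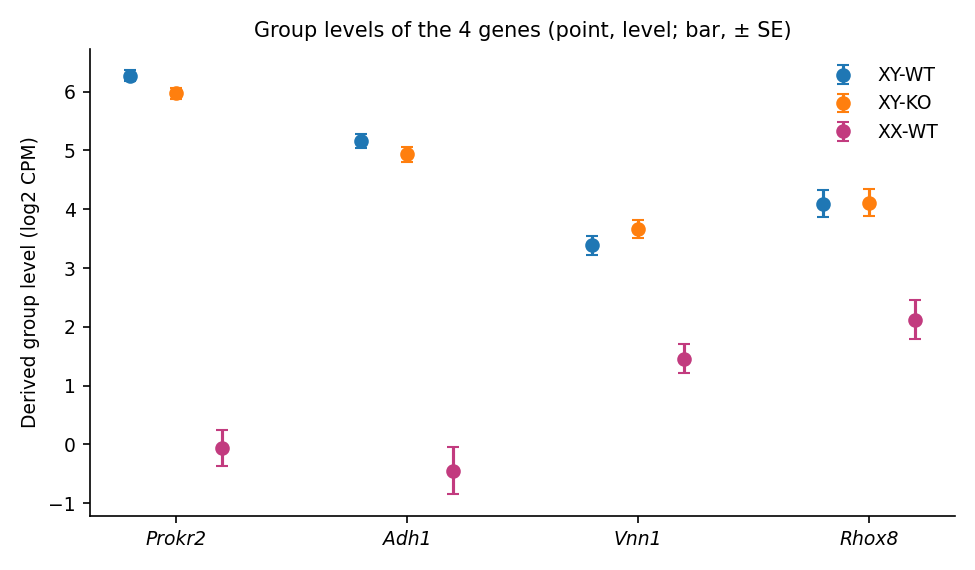
Derived group levels (vertical axis, log2 CPM) of the 4 genes (horizontal axis) in XY-WT, XY-KO and XX-WT; points are group levels and bars ± 1 SE, with 3 samples a group. For each gene the 2 testis groups sit close together, from 6.27 and 5.97 for Prokr2 to 3.39 and 3.66 for Vnn1, and XX-WT lies below.

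All 4 were called lower in XX-WT against XY-WT, where 12.4% of all genes were, and all 4 higher in XY-KO against XX-WT, where 9.16% were. None was called lower in XY-KO against XY-WT, where 1.57% of all genes were, or higher, where 0.699% were. The choice of members fixes these counts, and nothing is read from them. The 95% intervals for XY-KO against XY-WT lay within a 2-fold change either way for each of the 4.

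Per kilobase of annotated exon, the XY-WT levels ran from Adh1 (16.1 CPM per kb) and Rhox8 (14.2 CPM per kb) through Prokr2 (9.75 CPM per kb) to Vnn1 (4.34 CPM per kb). Adh1 and Rhox8, neighbours in this order, did not differ beyond their errors. The place of Prokr2 depends on its long annotated exons: per kilobase of its longest transcript its level was 17.2 CPM per kb, above Rhox8 (14.2) and below Adh1 (24.1). Vnn1 was the lowest of the 4 by both lengths in XY-WT. In XX-WT the order per kilobase of exon was Rhox8 (3.62 CPM per kb), Vnn1 (1.14), Adh1 (0.329) and Prokr2 (0.121), so the genes with the smaller sex difference had the higher ovarian levels.

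How far a knockout level lies between testis and ovary can be given as a position, the log2 change of XY-KO as a percent of that of XX-WT, each taken against XY-WT. At 0% the knockout has the level of the control testis and at 100% that of the control ovary. The position was 4.74% ± 2.02 (SE) for Prokr2, 4.06% ± 3.08 (SE) for Adh1, -14.1% ± 12.5 (SE) for Vnn1 and -0.71% ± 16.5 (SE) for Rhox8. The position of Sox9 itself was 61.7% ± 4.15 (SE) and that of Amh 18.6% ± 2.36 (SE). On the linear CPM scale the position of Prokr2 was 19.0% and that of Adh1 14.9%, since a small log2 change at a high level is a larger share of the CPM difference. For Vnn1 it was -28.3% and for Rhox8 -1.32%. The negative value of Vnn1 means that its knockout level was on the far side of the testis level from the ovary; on the log2 scale it was about as large as its error.

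The members were set beside the 960 genes called at least 2-fold lower in XX-WT than in XY-WT, called testis-biased here. Of these, 155 (16.1%) were called lower in XY-KO, 5 were called higher and 800 were not called, and their median position was 18.4% (quartiles 0.223% and 42.6%). For 510 of them (53.1%) the 95% interval for XY-KO against XY-WT lay within a 2-fold change, as it did for the 4 members. Among the 55 genes at least 32-fold lower in XX-WT, which include Prokr2 and Adh1, 17 (30.9%) were called lower in XY-KO, 21 had an interval within a 2-fold change, and the median position was 9.18%. A larger sex difference was seen in 1.46% of testis-biased genes for Prokr2, 3.33% for Adh1, 40.3% for Vnn1 and 39.3% for Rhox8.

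**Figure D2:**
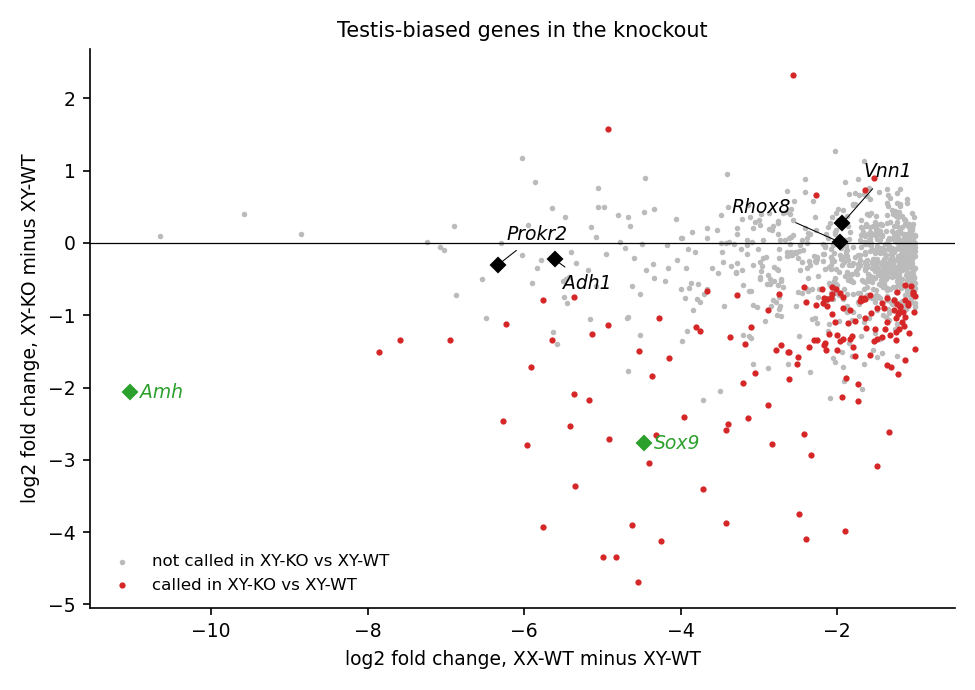
Each point is one of the 960 testis-biased genes, with the log2 fold change of XX-WT minus XY-WT on the horizontal axis and of XY-KO minus XY-WT on the vertical axis, from the authors' deposited tables; red points are called in XY-KO against XY-WT. The 4 genes (black diamonds) lie near the line of no change, between -0.30 and 0.27, while Sox9 (-2.76) and Amh (-2.06), in green, lie well below it.

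Lists of cell type markers were read beside the members. Of 16 Sertoli cell markers, 12 fell in XY-KO against XY-WT and none rose by the authors' limma test (background 1.57% and 0.699%). Sox9, the deleted gene, is among the 12, with 89.4 CPM in XY-WT and 13.2 CPM in XY-KO. The summed level of the 16 markers, Sox9 included, was 655 CPM in XY-WT, 256 CPM in XY-KO and 42.4 CPM in XX-WT. The 15 of them that were testis-biased had a median position of 23.1%, from 6.95% to 196%. Of 8 fetal Leydig cell markers, the steroid-making cells between the cords, none was called by limma in XY-KO (0 also at an unadjusted p under 0.05). Their summed level was 833 CPM in XY-WT, 820 CPM in XY-KO and 56.7 CPM in XX-WT, and their positions ran from -6.51% to 17.3% with a median of 0.215%. Of 8 interstitial markers 2 fell in XY-KO, with summed levels of 765 CPM, 694 CPM and 277 CPM in XY-WT, XY-KO and XX-WT, and the 7 testis-biased ones had a median position of 12.7%.

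For the other cell types of a gonad, 8 germ cell, 7 endothelial, 5 macrophage, 7 pre-granulosa and 4 mesonephric markers were read. None was called by limma in XY-KO against XY-WT, where 1.57% of all genes were lower and 0.699% higher. In that order of lists, 2, 1, 0, 2 and 1 markers had an unadjusted p under 0.05. Summed germ cell markers stood at 388 CPM in XY-WT, 322 CPM in XY-KO and 576 CPM in XX-WT. Summed pre-granulosa markers, of the supporting cells of the ovary, stood at 32.7 CPM, 42.0 CPM and 364 CPM in the same order. Endothelial markers summed to 175 CPM, 169 CPM and 161 CPM, macrophage markers to 13.6 CPM, 13.4 CPM and 16.6 CPM, and mesonephric markers to 14.1 CPM, 11.4 CPM and 19.2 CPM. Insl3 of the Leydig list, Nanos2 of the germ cell list and Cdh16 of the mesonephric list were not among the genes of the tables. The part of any cell type in the members' levels was not tested.

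Genes of the prokineticin pathway gave little of the pattern of Prokr2. Of 9 measured genes, Prokr2 included, 4 were lower and 2 higher in XX-WT than in XY-WT (background 12.4% and 10.9%). In XY-KO 1 of the 9 fell and 1 rose (background 1.57% and 0.699%). Their median log2 fold change was -0.29 in XX-WT against XY-WT, beside 0.00414 over all genes, and -0.23 in XY-KO against XY-WT, beside -0.01. The ligand genes Prok1 and Prok2 were not among the genes of the tables. The second receptor, Prokr1, was low in every group, and the authors' deposited table gave it 0.75 (SE 0.355, adjusted p 0.146) in XX-WT and -0.23 (SE 0.411, adjusted p 0.812) in XY-KO, both against XY-WT and neither passing.

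The called changes of the list in XY-KO were in phospholipase C genes, whose enzymes act below receptors of this kind. Plcb2 fell by 1.34 (SE 0.200, adjusted p 0.00148) in XY-KO in the authors' deposited limma table and by 2.26 (SE 0.225) in XX-WT. Plcb1 rose by 1.06 (SE 0.172, adjusted p 0.00298) in XY-KO in the authors' deposited limma table and by 0.79 (SE 0.173) in XX-WT.

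Among genes of alcohol and retinol metabolism, which pass retinol through retinal to retinoic acid and on to its degradation, 19 were measured. Of these, 4, Adh1 included, were lower and 5 higher in XX-WT (background 12.4% and 10.9%). None was called by limma in XY-KO against XY-WT (background 1.57% lower and 0.699% higher), and 2 had an unadjusted p under 0.05. The median was 0.24 in XX-WT and 0.13 in XY-KO, both against XY-WT. Adh5, the class III enzyme of the same family, fell by 0.57 (SE 0.135, adjusted p 0.00568) in XX-WT in the authors' deposited limma table; the difference of Adh1 was -5.61. In XY-KO the authors' deposited table gave Adh5 -0.41 (SE 0.136, adjusted p 0.131). Adh4, Adh6a, Adh6b and Adh7 were not among the genes of the tables.

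Cyp26b1, the enzyme that degrades retinoic acid in the fetal testis, was close to Adh1 in both contrasts. The authors' deposited limma table gave Cyp26b1 -5.34 (SE 0.212, adjusted p 3.92e-10) in XX-WT and -0.27 (SE 0.127, adjusted p 0.262) in XY-KO. The retinal dehydrogenase Aldh1a1 was lower in XX-WT by the authors' deposited limma table (-2.75, SE 0.166) and stood at 0.13 (SE 0.164, adjusted p 0.720) in XY-KO. The retinol dehydrogenase Rdh10 was higher in XX-WT by the authors' deposited limma table (0.75, SE 0.210, adjusted p 0.0162) and stood at 0.39 (SE 0.217, adjusted p 0.342) in XY-KO. Adh1, Cyp26b1 and Aldh1a1 were the 3 testis-biased genes of this list, with positions from -4.67% to 5.06%.

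In the list of vanin and coenzyme A genes, Vnn1 was the only testis-biased gene of at least 2-fold among 18 measured. In all, 4, Vnn1 included, were lower and 5 higher in XX-WT (background 12.4% and 10.9%), with a median of 0.04. None was called by limma in XY-KO (2 at an unadjusted p under 0.05, median -0.04), where the background was 1.57% lower and 0.699% higher. The related Vnn3 was not among the genes of the tables. Gclc, which starts glutathione synthesis, was higher in XX-WT by the authors' deposited limma table (0.97, SE 0.166, adjusted p 0.00048) and stood at -0.11 (SE 0.178, adjusted p 0.787) in XY-KO. Csad, an enzyme of taurine synthesis, was at 0.65 (SE 0.167, adjusted p 0.00963) in XX-WT and 0.38 (SE 0.172, adjusted p 0.248) in XY-KO in the authors' deposited limma table. Ado, which oxidises the cysteamine that vanin releases, was at -0.34 (SE 0.131, adjusted p 0.0769) and -0.29 (SE 0.133, adjusted p 0.244) in the authors' deposited limma table and passed in neither.

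Rhox8 differed in direction from the other measured genes of its cluster that were called in XX-WT against XY-WT. Of 33 listed Rhox genes 6 were measured. Of these, 4 were called higher in XX-WT than in XY-WT (background 10.9%), and only Rhox8 was lower (background 12.4%). In XY-KO against XX-WT, 5 were lower (9.11% of all genes were) and Rhox8 was higher. None was called by limma in XY-KO against XY-WT, where the background was 1.57% lower and 0.699% higher, and 1 had an unadjusted p under 0.05. That gene was Rhox1, for which the authors' deposited limma table gave -1.80 (SE 0.617, adjusted p 0.139). In XX-WT against XY-WT the authors' limma test put Rhox1 at 0.85 (SE 0.425, adjusted p 0.167), not called.

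The Rhox genes higher in the ovary spanned a wide range. The authors' deposited limma table gave Rhox9 3.62 (SE 0.326, adjusted p 8.92e-07), Rhox6 3.29 (SE 0.430, adjusted p 3.86e-05), Rhox2a 2.78 (SE 0.557, adjusted p 0.00175) and Rhox5 1.42 (SE 0.340, adjusted p 0.00629) in XX-WT against XY-WT. Rhox5, the founding gene of the cluster, had derived levels of 4.77 log2 CPM in XX-WT, 3.35 in XY-WT and 2.79 in XY-KO. Per kilobase of exon, Rhox5 (13.48 CPM per kb) and Rhox8 (14.2 CPM per kb) were the 2 highest of the 6 in XY-WT, and the other 4 were below 1 CPM per kb there. Rhox2a is one of a row of near-identical copies, so its value is uncertain where the counting could split their reads.

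**Figure D3:**
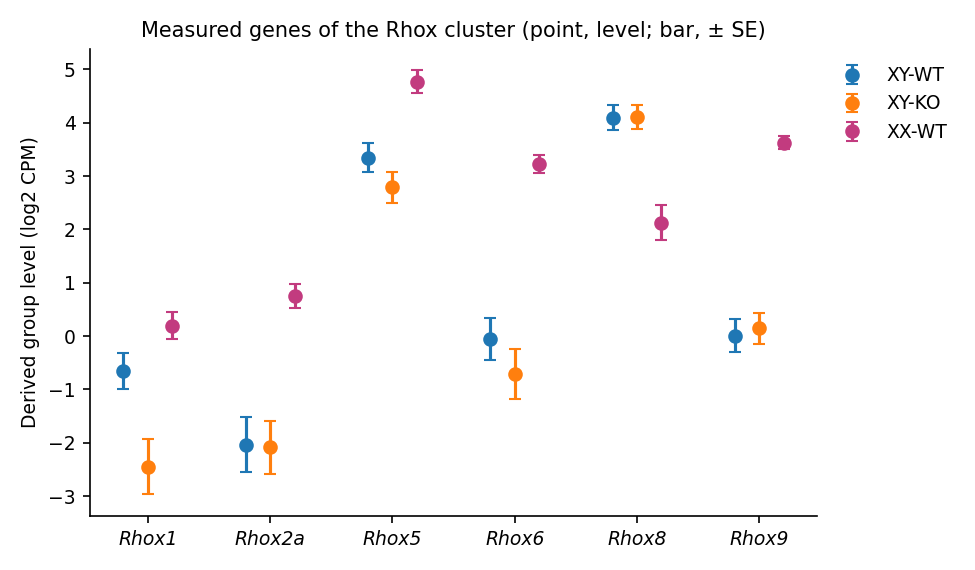
Derived group levels (vertical axis, log2 CPM) of the 6 measured Rhox genes in XY-WT, XY-KO and XX-WT; points are group levels and bars ± 1 SE, with 3 samples a group. Rhox8 is the one gene with XX-WT (2.12) below both testis groups (4.10 and 4.11), and Rhox6 and Rhox9 have XX-WT at 3.23 and 3.63 above both.

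Among measured genes within 500 kb, only the antisense gene at Adh1 had a sex difference as large as the member's in the same direction. That gene, Gm16559, shares exonic bases with Adh1. Of 14 measured genes whose start lies within 500 kb of the Prokr2 start, 5 were higher and none lower in XX-WT (background 10.9% and 12.4%). Their median was 0.33. For the nearest on each side the authors' deposited limma table of XX-WT against XY-WT gave 0.36 (SE 0.152, adjusted p 0.105) for Cds2 and 0.90 (SE 0.131, adjusted p 0.000112) for Gpcpd1. None of the 14 was called by limma in XY-KO against XY-WT (background 1.57% lower and 0.699% higher), and 4 had an unadjusted p under 0.05. With so low a background, no call among so few genes tells little, here and for the other members. Within 500 kb of Vnn1, none of 4 measured genes was called by limma in XX-WT (1 at an unadjusted p under 0.05) or in XY-KO (0 at an unadjusted p under 0.05). For the nearest to Vnn1 the authors' deposited limma table of XX-WT against XY-WT gave -0.46 (SE 0.163, adjusted p 0.0511) for Slc18b1 and 0.04 (SE 0.153, adjusted p 0.865) for Stx7.

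Near Adh1, none of 11 measured genes was called by limma in XY-KO against XY-WT (background 1.57% lower and 0.699% higher), and 2 had an unadjusted p under 0.05. In XX-WT, 3 of the 11 were lower and none higher (background 12.4% and 10.9%). The 3 were Gm16559, Adh5 and the histone gene H2afz, at -0.62 (adjusted p 0.0248) in the authors' deposited limma table. Gm16559 was at -5.78 (SE 0.839, adjusted p 0.000106) in XX-WT and -0.23 (SE 0.313, adjusted p 0.740) in XY-KO in the authors' deposited limma table, close to Adh1 in both. Its derived levels were low, at 2.18 log2 CPM in XY-WT, 1.95 in XY-KO and -3.61 in XX-WT. Because it shares exonic bases with Adh1 and strand use is unknown, its values may not be independent of those of Adh1. The nearest gene on the other side, Mttp, whose start lies 116 kb from the GENCODE start of Adh1, was at -0.39 (SE 0.334) in XX-WT against XY-WT, with an adjusted p of 0.439 in the authors' deposited limma table. The genes nearest Rhox8 were Rhox9, 22.8 kb away, and Rhox6, 52.0 kb away. With Rhox5 they were the 3 of 5 measured genes called within 500 kb, all higher in XX-WT (background 10.9%). None of the 5 was called by limma in XY-KO against XY-WT (background 1.57% lower and 0.699% higher), and 0 had an unadjusted p under 0.05.

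**Figure D4:**
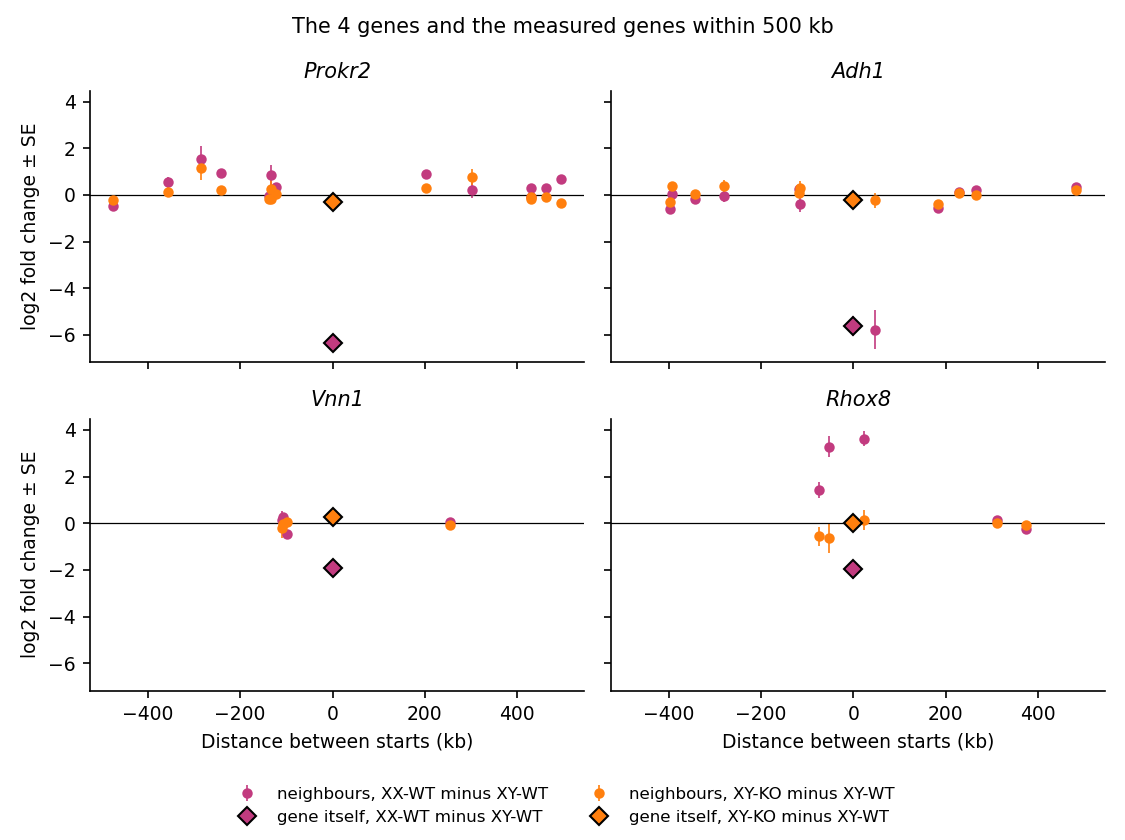
Log2 fold changes ± SE (vertical axis) of the 4 genes (diamonds) and of measured genes whose start lies within 500 kb (circles), by distance between starts in kb (horizontal axis), for XX-WT minus XY-WT and XY-KO minus XY-WT. Gm16559 (-5.78) lies beside Adh1 (-5.61), with which it shares exonic bases. The nearest genes to Rhox8 (-1.97) lie on the other side of 0, at 3.62 and 3.29.

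The genes of most like pattern were taken as the 3 nearest to each member in its pair of log2 fold changes against XY-WT, among 4056 to 4351 named genes within 1 log2 unit of its mean level. The likeness is over 3 groups that share the XY-WT samples, and it is a description. Nearest to Prokr2 were Cbln1, a secreted synapse organiser (distance 0.326), Adh1 (0.724) and the androgen-making enzyme Cyp17a1 (0.782). Cbln1 was also the nearest to Adh1 (0.426), and the authors' deposited table gave Cbln1 -6.03 (SE 0.387) in XX-WT and -0.17 (SE 0.140) in XY-KO. Next to Adh1 came Sostdc1, a secreted antagonist of BMP and WNT signals, and the kinase gene Map3k21; of the genes listed this way for the 4 members only Sostdc1 was called in XY-KO, where the authors' deposited limma table gave it -0.79 (SE 0.179, adjusted p 0.0303).

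Nearest to Vnn1 were Cxxc4, a WNT pathway inhibitor (distance 0.0817), Arhgap6 (0.191) and the transmembrane collagen Col13a1 (0.230). The authors' deposited table gave these 3 -1.87, -2.12 and -1.84 in XX-WT and 0.23, 0.22 and 0.06 in XY-KO. Nearest to Rhox8 were Egflam, a matrix protein (distance 0.0759), the tetraspanin Tspan15 (0.148) and the calcium sensor Vsnl1 (0.173). The authors' deposited table gave Egflam -1.91, Tspan15 -1.89 and Vsnl1 -2.04 in XX-WT, and -0.02, -0.11 and -0.14 in XY-KO. Their errors in XY-KO, 0.174 to 0.187, were smaller than that of Rhox8 (0.324).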

How the data were processed

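RNA was measured in 9 gonad samples, 3 a group, as read pairs of 150 nt per the labels. The submitters' processing notes list the genome GRCm38 and the tools HTSeq 0.6.1p1, TopHat2 2.0.8, Trimmomatic 0.30 and limma 3.24.0; filters, strand use, sample weights and the log offset are not given in the sources used here. Per the file headers, the authors deposited, for each of 3 comparisons, a log2 fold change, a mean log2 expression, the limma scores t and B, and a p-value with its Benjamini-Hochberg adjusted p-value. The 3 log2 fold changes added up within 0.005, and t gave p at 15.27 degrees of freedom in each table, as 1 fit of the 3 groups would.

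Standard errors were the log2 fold change divided by t; group levels assumed equal weight for the groups, and their errors were solved from the 3 contrasts' errors. Symbols were matched for 15192 genes with GENCODE M21, which also gave positions and lengths; distances run between GENCODE gene starts. Shared sequence was searched with blastn 2.17.0, in Python 3.11.15 with numpy 2.4.6, pandas 2.3.3, scipy 1.17.1 and matplotlib 3.10.9. The calling and local-median steps were tested on simulated data. The members and lists were chosen with earlier results of these data known. Other genes were named by a rule: family members in the lists, in each list the 2 with the smallest adjusted p in either contrast with XY-WT, the nearest measured gene on each side, and the 3 most alike. H2afz was named after its value was seen. Alternatives covered the threshold, adjustment, level filter, centring, GC content and length, scale and window. The number of samples limits the precision. No counting interval was computed, nor the share of all genes at an unadjusted p under 0.05.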

Additional observations from a re-analysis of the deposited data

How the results depend on the processing

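No paired analysis was possible because the deposited comparisons carry no values of single samples, so the replicate numbers could not be used, and for the same reason no replicate was left out. Subtracting the median of all genes, or of the 500 genes nearest in GC content and length or in mean expression, moved none of the 36 member values by more than 0.0859 on the log2 scale; 1 changed sign, Rhox8 in XY-KO against XY-WT (-0.01 with the GC and length median subtracted). Amh, which is not a member, moved from -2.06 to -1.67 in XY-KO against XY-WT with the GC and length median subtracted. Prokr2, Adh1, Vnn1 and Rhox8 were called in XY-KO against XY-WT under no adjustment tried (Vnn1 lies below the level filter). Bonferroni adjustment ended the call in XX-WT against XY-WT for Vnn1 and Rhox8, and in XY-KO against XX-WT for Rhox8.

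Counts of called genes fell from 3560 to 2127 (adjusted p under 0.01), 1836 (at least 2-fold), 1879 (genes at or above median level) and 627 (Bonferroni) in XX-WT against XY-WT. They fell from 2796 to 1699, 1540, 1397 and 481 in XY-KO against XX-WT, in the same order. In XY-KO against XY-WT the 347 became 139, 190, 206 and 55, and 922 when p-values of all 3 comparisons were adjusted as 1 set. On the linear scale the position was 19.0% for Prokr2, 14.9% for Adh1, -28.3% for Vnn1, -1.32% for Rhox8 and 30.4% for the median testis-biased gene; that median was 11.5% among genes at least 8-fold lower in XX-WT. Called neighbours in XX-WT against XY-WT were 2 within 250 kb of Prokr2, 1 within 1000 kb of Vnn1 and 10 within 1000 kb of Rhox8 (9 higher, 1 lower), and 1 neighbour of Prokr2 was called in XY-KO within 1000 kb. At an adjusted p under 0.01, 3 vanin and coenzyme A genes differed in XX-WT. The remaining alternatives gave counts within 1.5 times the reported ones. Why counts moved was not tested beyond what each setting does by construction.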
